A study of Mus musculus with 6 samples.

Results

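The genes described here are 10 regulators of the primitive streak and of Nodal signalling in mouse embryonic stem cells (ESCs). They are the transcription factors *T*, *Eomes*, *Mixl1*, *Mesp1*, *Gsc*, *Foxa2* and *Evx1*, the ligand *Nodal*, and its inhibitors *Lefty1* and *Lefty2*. They were chosen by symbol, and all 10 were found among the 23420 gene symbols of the count tables. RNA was sequenced from E14 ESCs, an established mouse line, in 3 wild type (WT) libraries and 3 libraries of the same line without functional Patz1 (Patz1 KO), a zinc finger protein. Both genotypes grew in medium with LIF, the MEK inhibitor PD0325901 and the GSK3 inhibitor CHIR99021 (2i), so every value refers to cells held in the naive pluripotent state. The knockout was made with CRISPR/Cas9 and single clones were picked, and the study calls its RNA-seq replicates biological. The labels do not say whether the KO libraries came from separate clones or cultures, so p-values measure the spread between these libraries, which may be technical.

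Nodal is a secreted ligand of the TGF-beta family. It binds activin receptors together with the co-receptor Cripto (*Tdgf1*), and the signal reaches the nucleus through Smad2 and Smad3, which act with Smad4 and the DNA-binding partner Foxh1. Among the known targets are *Nodal* itself and *Lefty1* and *Lefty2*, whose secreted products block Nodal in a negative feedback loop. In the gastrulating embryo high Nodal and Wnt activity marks the primitive streak, where *T*, *Eomes* and *Mixl1* are switched on in cells that will form mesoderm and endoderm. Naive ESCs are known to make Nodal and Lefty while transcribing streak factors weakly.

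The libraries held 11040756 to 47721070 counts, and replicate 3 of each genotype was the shallow one. The pre-ribosomal RNA gene *Rn45s* took 12.5% to 14.4% of the counts in replicate 3 and 1.79% to 3.03% in the other libraries. A floor of 3 counts corresponds to 1.69 to 8.21 normalized counts, depending on the library, where normalized means divided by the DESeq2 size factor. *Patz1* stood at 1838, 1983 and 1843 normalized counts in WT and at 853, 862 and 862 in Patz1 KO, a log2 fold change of -1.14 (SE 0.10, DESeq2 adjusted p = 1.6e-26). It lies on chromosome 11, where the median log2 fold change of 915 genes was -0.26. The study reports that the PATZ1 protein signal was absent from its KO lines on western blots, so the remaining RNA does not measure remaining protein. Each of 9 ESC markers, among them *Pou5f1* and *Nanog*, had a mean of at least 50 normalized counts, and 0 of 9 passed the test between genotypes in either direction on genotype alone. Of all 15309 genes tested, 7.49% passed. With the replicate number as a block, *Pou5f1* (log2 fold change 0.14, DESeq2 adjusted p = 0.0405) and *Zfp42* (0.15, DESeq2 adjusted p = 0.0298) were higher in KO, where 6.68% of all genes tested were higher. In bulk RNA, fewer cells expressing a gene and less RNA per cell cannot be told apart.

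The 10 genes spanned a wide range of levels. Per kilobase of exon, the scale on which genes can be compared, the order in WT was *Lefty2* (1275 ± 216 normalized counts per kb, SD, n = 3), *Nodal* (893 ± 45.3), *Lefty1* (334 ± 64.6), *Eomes* (169 ± 23.7) and *T* (90.9 ± 30.0). The ranges of these neighbours did not overlap in WT. Lower levels per kb were found for *Evx1* (18.8 ± 6.26), *Gsc* (10.05 ± 3.33), *Mixl1* (8.89 ± 4.11) and *Mesp1* (2.55 ± 1.62), and *Foxa2* was at 0 counts in each WT library. *Evx1* and *Gsc* overlapped in their levels, as did *Gsc* and *Mixl1*. In Patz1 KO the order of the first 8 was kept, but *Lefty2* (904 ± 250) and *Nodal* (850 ± 41.1) overlapped. The signalling genes were thus measured at high counts, and the factors from *Evx1* downwards at few.

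**Figure D1:**
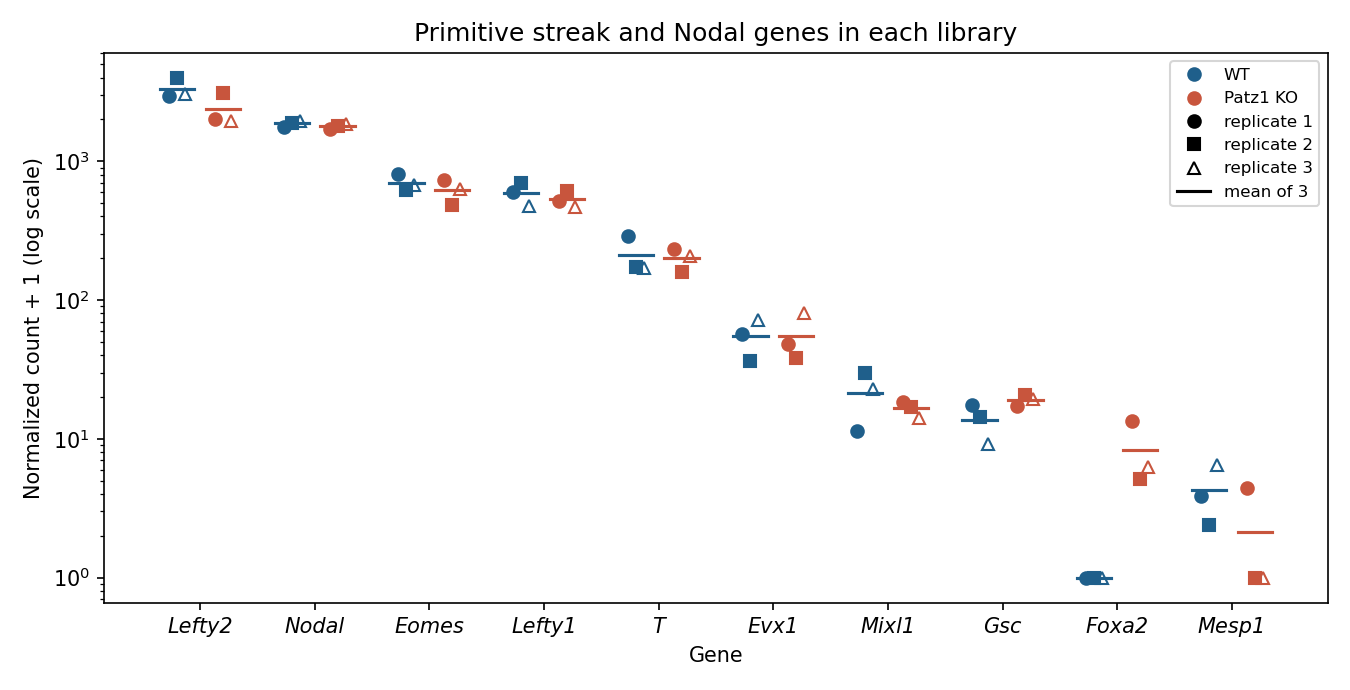
Normalized count + 1 (log scale) of each gene in each library, with WT in blue, Patz1 KO in red, a symbol for each replicate and a bar for the mean of 3. *Foxa2* is the gene whose genotypes do not overlap, at 0 in WT and at 4.15 to 12.4 normalized counts in Patz1 KO.

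Between genotypes, 8 of the 10 genes received an adjusted p and 0 of the 8 passed at 0.05, against 7.49% of all 15309 genes tested (DESeq2 Wald test, Benjamini-Hochberg adjustment over all genes). At an unadjusted p under 0.05 there were 2, *Lefty2* and *Foxa2*. Libraries of the same replicate number deviated together, so they were also compared as pairs. With the replicate number as a block, 1 of 8 passed, *Lefty2*, against 14.6% of 14567 genes. For 1 of the 10 genes, *Foxa2*, every KO library lay on the same side of every WT library, which held for 25.6% of the 15309 genes with an adjusted p. *Foxa2* was not among those genes. The median log2 fold change of the 8 genes was -0.13, and that of all genes tested was 0.01. *Mesp1* and *Foxa2* had no adjusted p because their mean counts were below the filter on low means.

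*Nodal* was at 1772, 1883 and 1960 normalized counts in WT and at 1694, 1780 and 1866 in Patz1 KO. The genotypes overlapped, although the KO library was the lower one in each of the 3 pairs. The log2 fold change was -0.07 (SE 0.10, DESeq2 adjusted p = 0.832), and its 95% interval ran from 0.83-fold to 1.09-fold. On genotype alone the difference was within the spread between libraries, and with 706 to 3098 counts per library the interval was the narrowest of the 10 genes. With the replicate block the log2 fold change was -0.07 (SE 0.07, DESeq2 adjusted p = 0.622).

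*Lefty1* and *Lefty2* encode closely related Nodal inhibitors and lie near each other on chromosome 1, *Lefty2* at chr1:180893108-180899103 and *Lefty1* at chr1:180935022-180938400, both on the plus strand of mm10. Their coding sequences, each of 1104 bases, were 91.8% identical without a gap, and the longest identical run was 140 bases. Of all 50-base windows, 17.9% in the *Lefty1* mRNA and 11.6% in the *Lefty2* mRNA occurred in the other mRNA. Of 100-base windows, 4.80% and 3.07% did. A read that lies wholly in such a shared window cannot be assigned to either gene. The read length of the libraries was not taken into account. The stretch of coding bases 34 to 93, with the most differences, shows where reads can tell them apart, and the 18 differing bases are in capitals:
Lefty1: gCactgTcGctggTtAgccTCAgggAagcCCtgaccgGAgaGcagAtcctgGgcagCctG
Lefty2: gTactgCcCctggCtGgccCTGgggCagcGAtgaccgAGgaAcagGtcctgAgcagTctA

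*Lefty2* was at 2971, 3979 and 3037 normalized counts in WT and at 2006, 3113 and 1961 in Patz1 KO. The genotypes overlapped, since the highest KO library (replicate 2) lay above both lower WT libraries, but within each pair the KO library was the lower one. This held for 26.1% of all genes tested. Mean level in KO was 70.9% of that in WT. The log2 fold change was -0.49 (SE 0.17, 95% interval 0.562-fold to 0.896-fold), and the adjusted p was 0.0525 in the DESeq2 fit on genotype alone. With the replicate block the log2 fold change was -0.51 (SE 0.07) and the DESeq2 adjusted p = 5.75e-10. On genotype alone, but with genes of low counts removed before the fit, the DESeq2 adjusted p was 0.0469. The call thus differed with the pairing, the filter and single libraries. Without Patz1 KO replicate 2 the log2 fold change was -0.75 with adjusted p = 8.98e-05, whereas leaving out any other library gave adjusted p values of 0.106 to 0.449.

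*Lefty1* was at 595, 698 and 471 normalized counts in WT and at 517, 611 and 465 in Patz1 KO. The genotypes overlapped, with the KO library lower in each pair and nearly level in the third. Its log2 fold change was -0.15 (SE 0.16, DESeq2 adjusted p = 0.759), with an interval of 0.722-fold to 1.12-fold. Per kilobase of exon, *Lefty2* stood at 3.36, 3.84 and 4.34 times *Lefty1* in WT and at 2.61, 3.43 and 2.84 times in KO. The ratio was lower in KO in each pair, and the genotypes overlapped. Against *Nodal* per kilobase, *Lefty2* stood at 1.35, 1.70 and 1.24 times in WT and at 0.95, 1.40 and 0.843 times in KO, again with overlap.

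**Figure D2:**
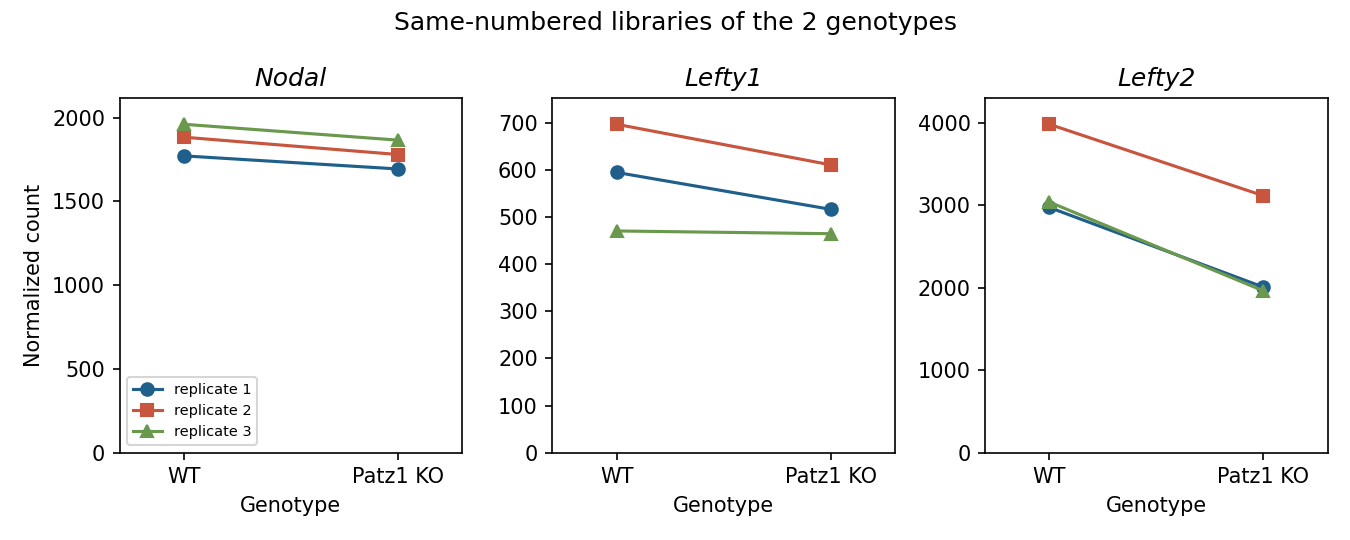
Normalized counts of *Nodal*, *Lefty1* and *Lefty2* in WT and Patz1 KO, with a line joining the libraries of the same replicate number and the axis starting at 0. All 9 lines go down, most steeply for *Lefty2* (70.9% of the WT mean), while *Nodal* stays at 95.1% and *Lefty1* at 90.3%.

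*Mixl1* lies on the same chromosome, 196 kb before *Lefty2*. It encodes a homeobox factor of nascent mesoderm and endoderm. The counts were 18, 41 and 8 in WT and 31, 27 and 5 in KO, which correspond to 10.3, 29.0 and 21.9 normalized counts against 17.5, 16.0 and 13.2. The genotypes overlapped, and the pairs did not move the same way. Patz1 KO differed from WT by a log2 fold change of -0.33 (SE 0.55, DESeq2 adjusted p = 0.869), and the interval of 0.377-fold to 1.68-fold left changes of either sign within the error. Between *Mixl1* and *Lefty2*, the counted genes *Acbd3*, *H3f3a* and *Sde2* did not pass the test, with log2 fold changes of -0.03 to 0.15. They are not among the 10 genes and were named for their place alone.

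*T* (Brachyury) and *Eomes* are T-box factors of the streak. *T* was at 290.5, 170.9 and 169.8 normalized counts in WT and at 233, 158 and 206 in KO, so that KO values lay inside or just under the WT range. Its log2 fold change was -0.11 (SE 0.24, DESeq2 adjusted p = 0.908, interval 0.672-fold to 1.29-fold), and it turned to 0.22 without WT replicate 1 and to 0.05 without Patz1 KO replicate 2. *Eomes* was at 811, 621 and 671 normalized counts in WT and at 729, 483 and 634 in KO. The KO library was lower in each pair and the genotypes overlapped. The log2 fold change was -0.19 (SE 0.17, DESeq2 adjusted p = 0.669, interval 0.696-fold to 1.10-fold). Exons of *Eomes* overlap the antisense gene *Gm33460*, and those of *Evx1* the antisense gene *Evx1os*. The libraries were strand-specific, but the strand setting of the counting is not given in the sources used here, so reads of these partners may be mixed. Among genes named in other paragraphs, exons of *Nkx1-2*, *Drap1*, *Dab2*, *Sox17*, *Gata6*, *Pou5f1* and *Patz1* also overlap antisense genes. Those of *Pcsk6* overlap *Gm45213*, and those of *Patz1* overlap *Gm11944*, on the same strand.

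*Evx1*, a homeobox factor of the posterior streak, was at 56.0, 35.3 and 71.2 normalized counts in WT and at 46.8, 37.4 and 79.3 in KO. Replicate 3 was the highest and replicate 2 the lowest in both genotypes. The log2 fold change was -0.02 (SE 0.36, DESeq2 adjusted p = 0.990, interval 0.601-fold to 1.62-fold). *Gsc* (Goosecoid), a factor of the anterior streak and organizer, had 29, 19 and 3 counts in WT and 29, 33 and 7 in KO, or 16.6, 13.4 and 8.21 normalized counts against 16.4, 19.6 and 18.5. The genotypes overlapped, and WT replicate 3 was at its floor of 3 counts. The log2 fold change was 0.41 (SE 0.54, DESeq2 adjusted p = 0.817), and the interval reached from 0.640-fold to 2.77-fold. *Mesp1*, a factor of the earliest cardiac mesoderm, had 5, 2 and 2 counts in WT and 6, 0 and 0 in KO. Only replicate 1 of each genotype was above the floor of 3 counts, so a difference was not detectable at this depth (interval 0.0508-fold to 3.99-fold).

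**Figure D3:**
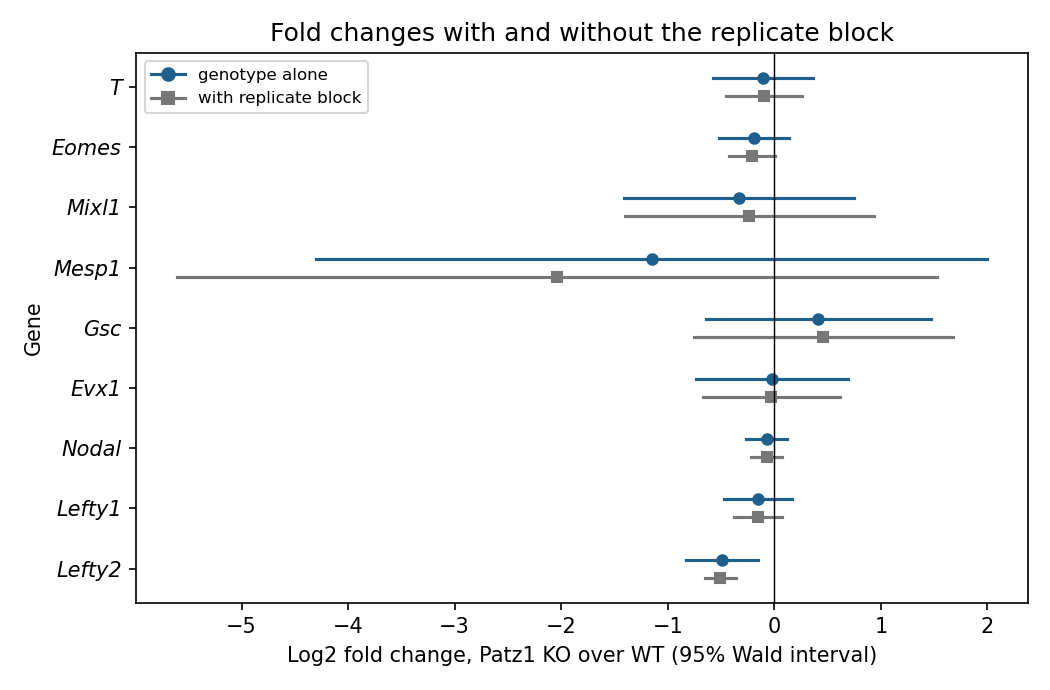
Log2 fold change of Patz1 KO over WT with its 95% Wald interval for 9 genes, from the fit on genotype alone (blue circles) and with the replicate block (grey squares). *Foxa2* is left out because its WT libraries are at 0. *Lefty2* is the gene whose interval lies below 0 in both fits, and the intervals of *Mixl1*, *Mesp1* and *Gsc* are wide.

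*Foxa2* encodes a forkhead factor of the anterior streak, the node and the endoderm. It had 0, 0 and 0 counts in WT and 22, 7 and 2 counts in Patz1 KO, which correspond to 12.4, 4.15 and 5.29 normalized counts in KO. The genotypes did not overlap, but 22 of the 31 KO counts came from replicate 1, and replicate 3 of KO held fewer than 3 counts. The 3-count floor of WT replicate 3, 8.21 normalized counts, lay above KO replicates 2 and 3, so 0 counts there did not separate it from them. Against a floor of 3 counts over the WT libraries together, the pooled level in KO was 9.51 times that floor. The KO counts carried no error in this ratio, so it is not a lower limit of the change. The ratio was 4.80 without WT replicate 1, 5.69 without WT replicate 2 and 5.13 without Patz1 KO replicate 1. Leaving out any other library gave 8.52 to 13.1. In the DESeq2 fit on genotype alone, the Wald interval ran from 4.54-fold to 340-fold. Among all 19404 genes with a count in any library, 24 genes (0.124%) were at 0 in each WT library with at least 1 count in each KO library, and *Foxa2* held the largest sum of these. The unadjusted DESeq2 p was 0.00086 and no adjusted p was given. Without the filter on low means the DESeq2 adjusted p was 0.0204, against which 5.54% of 19402 genes passed. With the filter kept, the adjusted p was 0.157 without WT replicate 1 and 0.125 without WT replicate 2, and none was given without any other library. The per-kilobase level in KO, 3.07 ± 1.89, was that of the weakest detected genes and overlapped *Mesp1*.

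Other endoderm genes are set beside *Foxa2*. Of 6 markers of primitive or visceral endoderm, 1 was higher in KO, the adaptor gene *Dab2* (25.7, 28.2 and 43.8 normalized counts in WT and 70.0, 65.8 and 100.4 in KO, DESeq2 adjusted p = 0.00191), and 0 were lower, where 2.70% and 4.78% of all genes tested were higher and lower. The summed level of the 6 was 106 to 159 normalized counts in WT and 143 to 201 in KO, which overlapped. Without *Dab2* it was 80.1, 86.1 and 115 in WT and 73.4, 80.1 and 100.4 in KO, lower in KO in each pair. *Afp* was at or under 3 counts in every library, *Gata6*, a factor of endoderm, was at 2.74 to 8.01 normalized counts over all libraries, and *Sox17*, another, was at 6.86, 9.89 and 13.7 in WT and at 4.52, 7.71 and 2.64 in KO (DESeq2 adjusted p = 0.708). Of 5 fibroblast markers, which would mark feeder cells, *Thy1* was higher (log2 fold change 0.83, DESeq2 adjusted p = 0.0147), 0 were lower and 2 were at or under 3 counts in every library, with sums of 84.1 to 110.2 in WT and 134 to 169 in KO. Without *Thy1* the sums were 13.7 to 30.4 in WT and 13.2 to 19.2 in KO, which overlapped. Of 5 neural progenitor markers 0 passed the test, with sums of 104 to 124 in WT and 86.6 to 129 in KO. The part of other cell types in the *Foxa2* counts was not tested.

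Promoter sequence, the 250 bases before the start site from RefSeq (GRCm38.p6), was found for 7 of the 10 genes, and *Mixl1*, *Lefty1* and *Lefty2* were without an entry. *Foxa2* had 3 listed starts, and only the start at its GENCODE position was searched. The starts used for *Mesp1*, *Gsc* and *Eomes* lay 198, 94 and 23 bases from their GENCODE starts. PATZ1 is a zinc finger protein of G-rich DNA, so the run GGGGNGGGG was searched on both strands. It occurred 2 times in the promoter of *T* and 2 times in that of *Gsc*, and it was not among the letters of the other 5, while 20.6% of 32851 mouse promoters of the same length held it. The promoter of *Foxa2*, the gene whose genotypes did not overlap, is shown with that of *T*, in which the matches are in capitals. A match is a description of the letters and no evidence of binding. They lie at chr2:148046970-148047219 (minus strand) and chr17:8434173-8434422 (plus strand):
Foxa2: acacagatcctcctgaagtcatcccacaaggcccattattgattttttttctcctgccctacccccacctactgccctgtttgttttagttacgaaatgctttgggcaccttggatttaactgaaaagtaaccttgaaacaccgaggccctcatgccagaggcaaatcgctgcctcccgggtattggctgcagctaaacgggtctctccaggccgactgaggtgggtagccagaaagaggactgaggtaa
T: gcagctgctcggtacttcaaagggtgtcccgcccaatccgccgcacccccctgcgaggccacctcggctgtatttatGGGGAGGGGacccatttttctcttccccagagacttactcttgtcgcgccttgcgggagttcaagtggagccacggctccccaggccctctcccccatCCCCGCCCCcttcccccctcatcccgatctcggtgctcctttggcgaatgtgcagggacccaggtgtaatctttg
The T-box letters AGGTGTGA, the FOXH1 letters AATNCACA and the SMAD palindrome GTCTAGAC, searched on both strands, were found in 0 of the 7 promoters, and in 1.12%, 3.18% and 0.167% of all promoters.

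Of 30 other genes of the Nodal pathway, 24 received an adjusted p, of which 3 were lower in Patz1 KO, 0 were higher and 21 did not pass. Over all genes tested 4.78% were lower. The median log2 fold change of the 24 was 0.03. They included *Foxh1* and *Pcsk6*. *Foxh1*, the DNA-binding partner of the Smads, was at 918, 876 and 879 normalized counts in WT and at 698, 673 and 708 in KO, without overlap (log2 fold change -0.37, SE 0.11, DESeq2 adjusted p = 0.0158). *Pcsk6*, a convertase that matures Nodal, was at 1577, 1478 and 1377 in WT and at 1208, 1192 and 1202 in KO, without overlap (log2 fold change -0.31, SE 0.10, DESeq2 adjusted p = 0.0448). The count was 0 without WT replicate 2 or without Patz1 KO replicate 1, it was 1 without WT replicate 1 or Patz1 KO replicate 2, it was 2 without Patz1 KO replicate 3, and it was 5 without WT replicate 3. *Foxh1* did not pass without WT replicate 1, WT replicate 2, Patz1 KO replicate 1 or Patz1 KO replicate 2 (adjusted p 0.111 to 0.193), and *Pcsk6* without any library other than WT replicate 3 (0.0954 to 0.326). On all 6 libraries *Pcsk6* also did not pass with TMM size factors (0.0516), without independent filtering (0.0566), or in edgeR (0.0788) or limma-voom (0.0612) without a count filter.

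With the replicate block, 6 of the 24 passed, 4 lower and 2 higher, where 7.95% and 6.68% of all genes tested were lower and higher. *Drap1*, which encodes a corepressor of Foxh1, joined the lower genes (log2 fold change -0.36, DESeq2 adjusted p = 0.000877). The higher genes were *Inhbb*, an activin subunit (log2 fold change 0.36, DESeq2 adjusted p = 0.00398), and the co-receptor *Tdgf1* (0.18, DESeq2 adjusted p = 0.00881). Without replicate 3 of either genotype, 4 passed with the block, and *Tdgf1* did not (DESeq2 adjusted p = 0.115). The 4 held the 3 genes that were lower on genotype alone, so *Drap1* and *Inhbb* did not both pass there. *Drap1* and *Inhbb* were named after their values were seen. *Tdgf1* was at 17829 to 18817 normalized counts in WT and 19646 to 21470 in KO, without overlap, and its adjusted p in the fit on genotype alone was 0.237.

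The remaining named genes of the pathway did not pass in either DESeq2 fit. The ligand *Gdf3* had a log2 fold change of -0.11 (SE 0.14), the receptor *Acvr1b* of 0.27 (SE 0.14), the transducer *Smad2* of -0.14 (SE 0.11) and the inhibitory Smad *Smad7* of 0.13 (SE 0.32). *Acvr1b* was higher in each KO library than in any WT library, with adjusted p = 0.294 on genotype alone and 0.105 with the block. The secreted inhibitor *Cer1*, a gene of anterior endoderm, had 0 to 5 counts per library. *Gdf1* and *Inhba* were at 0 counts in each library, which allows at most 3 counts in any of them. Exons of *Gdf1* overlap those of *Cers1* on the same strand, so its reads may not have been assigned to it.

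**Figure D4:**
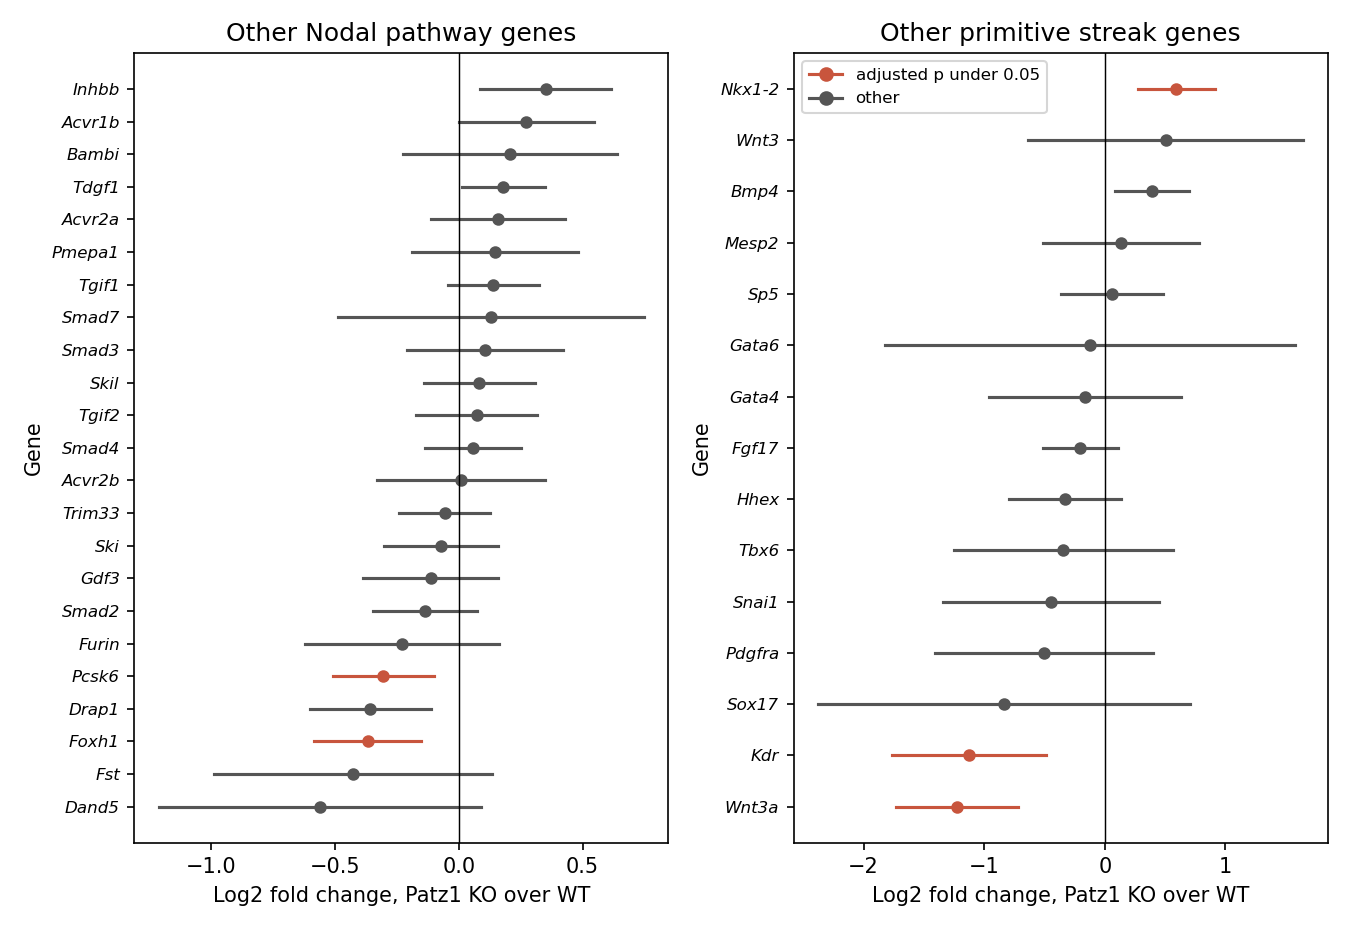
Log2 fold change of Patz1 KO over WT with its 95% Wald interval for 23 of the 24 Nodal pathway genes (left) and 15 primitive streak genes (right) with an adjusted p, in red where it was under 0.05. On the left *Foxh1* and *Pcsk6* are red, both lower in KO, and on the right *Nkx1-2* is higher and *Kdr* and *Wnt3a* are lower.

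Of 22 other genes of the primitive streak and its early derivatives, 15 received an adjusted p, of which 2 were lower, 1 was higher and 12 did not pass. Over all genes tested 4.78% were lower and 2.70% higher. The median log2 fold change of the 15 was -0.20. *Wnt3a*, a Wnt ligand of the streak and tail bud, was at 172, 141 and 110 normalized counts in WT and at 68.3, 49.2 and 71.4 in KO, without overlap (log2 fold change -1.23, SE 0.26, DESeq2 adjusted p = 0.00012). It passed without any single library. It lies on chromosome 11, where the median log2 fold change of 915 genes was -0.26. *Kdr*, the VEGF receptor of early blood and vessel precursors, was at 81.2, 70.6 and 54.8 in WT and at 36.7, 25.5 and 37.0 in KO, without overlap (log2 fold change -1.13, SE 0.33, DESeq2 adjusted p = 0.0119). *Nkx1-2*, a homeobox gene of the caudal epiblast, was at 461, 440 and 370 in WT and at 744, 674 and 492 in KO, without overlap (log2 fold change 0.59, SE 0.16, DESeq2 adjusted p = 0.0068). *Kdr* did not pass without WT replicate 1 (0.238), WT replicate 2 (0.135), Patz1 KO replicate 1 (0.0611) or Patz1 KO replicate 2 (0.226). *Nkx1-2* did not pass without WT replicate 2 (0.0526), Patz1 KO replicate 1 (0.212) or Patz1 KO replicate 2 (0.11). The count was 1 without WT replicate 2 or Patz1 KO replicate 1. With the replicate block, 4 of 13 genes passed, 2 higher and 2 lower, where 6.68% of all genes tested were higher and 7.95% lower, and the added gene was *Bmp4*, a ligand that acts upstream of the streak, named after its values were seen. *Bmp4* was at 1011, 825 and 816 normalized counts in WT and at 1401, 942 and 1150 in KO, which overlapped, with the KO library higher in each pair (log2 fold change 0.38, DESeq2 adjusted p = 0.00143 with the block and 0.11 without). Without replicate 3 of either genotype, 3 genes passed with the block, *Wnt3a*, *Kdr* and *Nkx1-2*, and *Bmp4* did not. Exons of *Bmp4* overlap the antisense gene *Gm15217*. *Wnt3*, the ligand that starts the streak, was at 6.86, 14.1 and 32.9 normalized counts in WT and at 14.7, 27.3 and 26.4 in KO, which overlapped (log2 fold change 0.50, SE 0.58, DESeq2 adjusted p = 0.783).

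The genes most like each of the 6 members with a mean of at least 50 normalized counts were sought among 11523 genes by Pearson r over the 6 libraries. They were *Jam2*, *Kdm4b* and *9430020K01Rik* for *Lefty2* (r 0.98 to 0.99), *Tspyl3*, *1500011B03Rik* and *Naa60* for *Lefty1* (0.99), and *Mreg*, *Msi1* and *Vangl2* for *Nodal* (0.99). For *Eomes* they were *Slc7a7*, *Luc7l* and *Mocs1* (0.98 to 0.99), for *T* *Gm14403*, *Sec24c* and *Pwp2* (0.97), and for *Evx1* *Gltscr1l*, *Apex1* and *Ndufa3* (0.99). These are the closest of 11523 genes over few libraries that share genotype, replicate number and depth, and are given as a description. None of the 18 passed the DESeq2 test on genotype alone. Between members, r was 0.84 for *T* with *Eomes* and 0.75 for *Lefty1* with *Lefty2*, and it was -0.87 for *Evx1* with *Lefty1*.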

How the data were processed

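The deposited values were raw read counts per gene symbol, in a table for each of 6 libraries of ribosomal RNA-depleted, strand-specific RNA. Per the labels and the study's methods, the authors mapped reads to mm10, and the submitters' processing notes name TopHat2 2.1.1, Bowtie2 2.3.1.0, featureCounts 1.6.2 and DESeq2, while the strand setting is not given in the sources used here. Counts of WT and Patz1 KO were compared in DESeq2 1.42.0 (R 4.3.3) by a two-sided Wald test on genotype, after the study's methods, without shrinkage and with Benjamini-Hochberg adjustment over all genes left by its independent filter on low means. An adjusted p under 0.05 was called. Libraries of the same replicate number deviated together from their genotype means (r of 0.469, 0.619 and 0.684 over 11524 genes with a mean of at least 50 normalized counts), so the values of a fit with the number as a block are given beside the calls it changed. No libraries were duplicates of each other by chi-square tests of their counts. Gene positions and lengths came from GENCODE (mm10), with lengths as the union of exons, and promoters came from RefSeq.

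Alternatives were edgeR 4.0.16 and limma 3.58.1, size factors by TMM, the removal of genes without 10 counts in at least 3 libraries, no independent filter or one set at 0.05, the replicate block, pseudocounts of 1 and 0.5, transcript length, and the loss of each library or of replicate 3 of both genotypes. A count filter in edgeR and limma was added after their unfiltered calls had been seen. The members and lists were chosen with earlier results of these data known. Named genes were all members, *Patz1*, list genes under the threshold (at most 6 in each list), *Tdgf1*, *Foxh1*, *Smad2*, *Acvr1b*, *Gdf3*, *Cer1*, *Smad7* and *Wnt3* whatever their values, and the 3 most similar genes of each member with a mean of at least 50. A gene of the pathway list and a neighbouring gene are not reported here by name, but the list counts include the former. Intervals of fold changes are 95% Wald intervals, and floors cover counting error only.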

Additional observations from a re-analysis of the deposited data

How the results depend on the processing

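The count of members called was 0 in the fit reported. It was 1 with the count filter (*Lefty2*), 1 without independent filtering or with it set at 0.05 (*Foxa2*), 1 in unfiltered edgeR or limma-voom (*Foxa2*), 1 with the replicate block with or without replicate 3, 2 with the block and no independent filtering, and 2 in edgeR with the block. It was 0 to 1 without single libraries. Fitted log2 fold changes of *Foxa2*, which are no bounds, were 5.30 without independent filtering or with it set at 0.05, 5.19 with the block and no independent filtering, 6.27 in unfiltered edgeR (adjusted p = 0.029) and 3.92 in unfiltered limma-voom (adjusted p = 0.0138). The mean difference of log2(normalized count + 1) was 2.92. The gene is left out by the count filter and by filtered edgeR and limma-voom. *Lefty2* was at -0.50 with the count filter (adjusted p = 0.0469), -0.51 with the block, also without independent filtering, -0.51 in edgeR with the block, -0.46 with the block and no replicate 3, and -0.75 to -0.34 without single libraries. It did not pass in edgeR (adjusted p = 0.166), in limma-voom (0.135), with TMM (0.0613) or without both replicate 3 libraries (0.612). *Eomes* passed in edgeR with the block alone (-0.22, adjusted p = 0.0408). Without single libraries, *T* ranged from -0.25 to 0.22, *Mixl1* from -0.71 to 0.11, *Evx1* from -0.30 to 0.21, *Gdf3* from -0.24 to 0.023, *Cer1* from -1.54 to 0.21 and *Smad7* from -0.054 to 0.41. The count of Nodal pathway genes was 3, then 2 with TMM, without independent filtering and in edgeR and limma-voom with or without their filter, 4 with the count filter, 6 with the block, with or without independent filtering, 8 in edgeR with the block, 5 without both replicate 3 libraries, 4 without them and with the block, and 0 to 5 without single libraries, and that of streak genes was 3, then 4 in the 3 fits with the block on all libraries, 3 with it and no replicate 3, and 1 to 3 without single libraries. All genes called numbered 1146 of 15309 tested, then 2131 of 14567 with the block and 1992 of 19404 with it and no independent filtering. They were 3739 of 14995 in edgeR with it and 1201 of 14824 with it and no replicate 3. With the count filter 1145 of 14429 were called, and 1074 of 19402 without independent filtering or 1133 of 16053 with it set at 0.05. Unfiltered edgeR called 945 and limma-voom 1190, each of 23420. Filtered, they called 961 and 1190 of 14995. TMM gave 1131 of 15681, and the loss of both replicate 3 libraries 1332 of 15193. Without single libraries the count was 583 to 1341, of 15198 to 15871. In DESeq2, the replicate block changed the calls of *Lefty2* and *Tdgf1*, and of no other member or list gene named by the rule, nor of *Patz1*. It also changed those of *Drap1*, *Inhbb* and *Bmp4*, which were named after their values were seen. Block values of the most similar genes were not examined. In edgeR with the block, *Eomes* and *Acvr1b* (0.28, adjusted p = 0.0184) were also called. By longest transcript, *Eomes* in WT stood at 197 normalized counts per kb. The causes were not tested. Depth limits *Mixl1*, *Gsc*, *Mesp1* and *Foxa2* most, which had at most 41 counts in any library.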
